A study of Mus musculus with 8 samples.

Results

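The C-terminal tail of STING was exchanged in Sting-/- mouse macrophages, and the RNA of cells carrying mouse STING with a zebrafish tail (labelled zfCTT) was set against that of cells carrying mouse STING itself (mSTING). The comparison used 4 of the 8 libraries of the series, 2 per group, and its members were all genes with at least 1 RPKM (reads per kilobase, corrected for library depth) in at least 2 of these 4 libraries, which gave 12759 of the 53715 genes in the deposited table. Both groups were stable lines made from macrophages without endogenous Sting, grown in 10 cm dishes and treated for 4 h with 500 µg/ml of CMA (10-carboxymethyl-9-acridanone), a synthetic compound known to act as an agonist of the mouse protein. The 4 other libraries came from the same cells under the same treatment, 2 with mouse STING whose tail had been deleted (dCTT) and 2 with no STING transgene. They are used below as the level of each gene without a tailed STING. All groups were stimulated, so no library shows resting cells. The labels do not say whether a line was 1 clone or a pool, so that a change of tail and any other difference between the 2 lines cannot be told apart. Nor do they say whether both libraries of a group were grown as separate cultures, and p-values then measure only the spread between the samples, possibly a technical one.

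STING is a membrane protein of the endoplasmic reticulum that binds cyclic dinucleotides made in answer to cytosolic DNA. In mammals its C-terminal tail recruits the kinase TBK1 and the transcription factor IRF3, which switches on type I interferon, and the secreted interferon then induces the many interferon-stimulated genes. STING also activates NF-κB, a family of transcription factors that drive cytokines, chemokines and their own inhibitors. The zebrafish tail is known to carry a further stretch that binds TRAF6, a ubiquitin ligase of the NF-κB pathway, and the series title names the tail's part in both arms as its subject.

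Tmem173, the gene of STING (ENSMUSG00000024349 in the annotation of GRCm38), read 10.6 and 22.1 RPKM with mSTING and 14.2 and 20.6 with zfCTT. The 2 groups overlapped, with a difference of 0.14 ± 0.38 in log2(RPKM + 1) (SE of the fit, n = 2 per group, adjusted p = 0.885), and both lay above the 3.23 and 2.42 RPKM of the libraries without transgene. The sign of that difference turned without mSTING replicate 1 (−0.35) or zfCTT replicate 2 (−0.11). The dCTT libraries read 22.7 and 15.0 RPKM. These values count reads of the mouse gene, so bases of the zebrafish tail may not be measured. Whether the lines made equal amounts of STING was not tested. Of 11 macrophage markers 10 were tested, and their summed level was 855 to 1022 RPKM with mSTING and 863 to 1076 with zfCTT, led by Cd68. Lists of fibroblast, T cell, B cell, dendritic cell, granulocyte, epithelial and endothelial markers had 0 members past the RPKM minimum, and the highest sum of any of these lists was 0.876 RPKM, for the endothelial genes in a zfCTT library, against at most 0.253 with mSTING. Col1a2, Col3a1, Dcn, Cd3e, Cd8a, Ly6g, S100a8 and S100a9 were at 0 in all 4 libraries. Depth, read back from the steps of the RPKM values, was 88.1 and 88.2 M reads for mSTING and 20.1 and 34.8 M reads for zfCTT, so that it separated the groups; its part in the results was not tested. The log2 levels of the 2 libraries of a group correlated across genes at r = 0.975 for mSTING and 0.963 for zfCTT, where genes are not independent replicates.

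Between the tails, 22 genes passed the test (limma, Benjamini-Hochberg adjusted p under 0.05 over all 12759 genes), 0.172% of those tested, with 20 higher and 2 lower in zfCTT. The genes that rose included a group of secreted immune mediators (Il12b, Ccl7, Cxcl2 and Il1rn), the itaconate enzyme Acod1, the T cell checkpoint ligand Cd274, 2 genes of MHC class II presentation, and Car2, a carbonic anhydrase. In all 20, both zfCTT libraries also lay above the 4 libraries without a tailed STING, as they did for 15.6% of all genes tested. Both mSTING libraries lay above those 4 in 7 of the 20, against 8.74% of all genes, and below those 4 in 3 (Ppic, Lmo1 and H2-Eb1); in the remaining 10 the ranges overlapped. Of the 20 genes, 13 passed the RPKM minimum only through zfCTT, so that they could be called in no other direction. These 13 were Il12b, Ccl7, Hmgn3, Lmo1, H2-Eb1, H2-Aa, Il1rn, Cd274, H2-M2, Cdc42ep2, Sox12 and the gene models Gm36079 and Gm29054. None of them was tested in the fits without a zfCTT library, so their counts of alternatives leave those fits out. Over all genes the median difference was 0.0129. In bulk RNA, fewer cells in a state and less RNA per cell cannot be told apart, which holds for every difference given here.

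**Figure D1:**
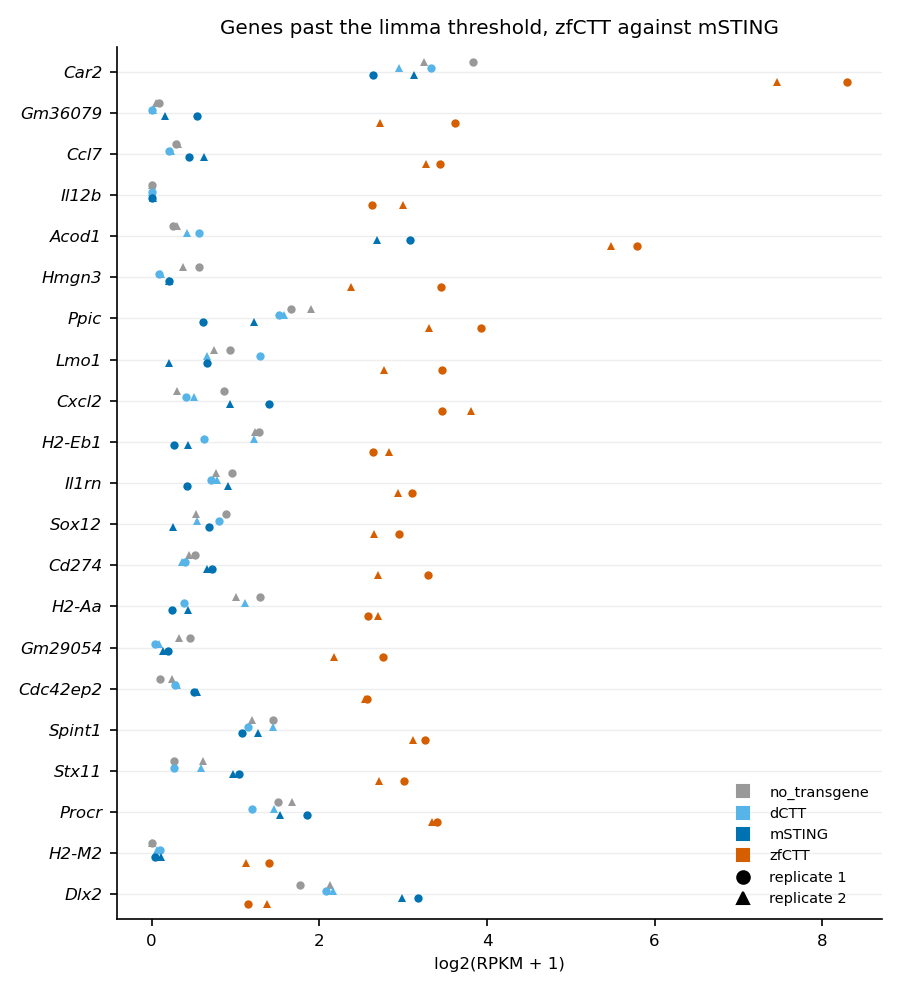
Level of the 20 genes that rose and of Dlx2, which fell, as log2(RPKM + 1), in each of the 8 libraries; colours mark the groups and symbols the replicates. For the 20 upper genes the 2 zfCTT points stand to the right of the other 6, and for Dlx2 they stand to the left.

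Car2, which converts carbon dioxide and water to bicarbonate (ENSMUSG00000027562, chr3:14886273-14900770, plus strand), read 5.24 and 7.76 RPKM with mSTING and 313 and 175 with zfCTT. Cells without a tailed STING had 13.3 and 8.54 RPKM (no transgene) and 9.10 and 6.71 (dCTT), so that the zfCTT libraries alone were high. The difference was 4.99 ± 0.36 in log2(RPKM + 1), the largest rise among the genes tested (adjusted p = 0.0103), and the mean RPKM of zfCTT was 37.6 times that of mSTING. It was past the threshold in 17 of 21 alternative settings.

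Il12b encodes p40, a chain of IL-12 that IL-23 also contains (ENSMUSG00000004296, chr11:44400063-44414033, plus strand). It read 0 and 0.0115 RPKM with mSTING, which is 0 and 2 reads, and 5.20 and 7.01 RPKM with zfCTT, which is 205 and 480 reads. All 4 libraries without a tailed STING held 0. The ratio of depth-scaled reads was 1101, with an exact 95% binomial interval of 304 to 9109 that covers counting error only, and the log2(RPKM + 1) difference was 2.81 ± 0.16 (limma, adjusted p = 0.00471). Outside zfCTT, Il12b thus had at most 2 reads in a library, and the difference was past the threshold in 16 of the 18 alternatives in which it was tested. Il12b passed the RPKM minimum only through zfCTT, so the fits without a zfCTT library did not test it.

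Ccl7 codes for a monocyte-attracting chemokine (ENSMUSG00000035373, chr11:82045712-82047525, plus strand). Its level was 0.368 and 0.538 RPKM with mSTING and 9.84 and 8.65 with zfCTT, against 0.157 to 0.247 in the 4 libraries without a tailed STING. The groups were wide apart, with a difference of 2.82 ± 0.14 and the smallest adjusted p of the comparison (limma, 0.00468), and the call held in 16 of 18 alternatives. Ccl7 too passed the minimum only through zfCTT and was not tested in the fits without a zfCTT library. Acod1 makes the metabolite itaconate in activated macrophages (ENSMUSG00000022126, chr14:103046977-103056573, plus strand). With mSTING it read 7.48 and 5.47 RPKM and with zfCTT 54.3 and 43.5, above 0.192 to 0.486 in cells without a tailed STING. Acod1 therefore stood at 3 levels, lowest without a tail, higher with the mouse tail and highest with the zebrafish tail, and the last step was 2.74 ± 0.20 (limma, adjusted p = 0.0103, past the threshold in 18 of 21 alternatives).

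Cxcl2 attracts neutrophils (ENSMUSG00000058427, chr5:90903871-90905938, plus strand) and read 1.65 and 0.911 RPKM with mSTING and 10.0 and 13.0 with zfCTT. It rose by 2.47 ± 0.26 (limma, adjusted p = 0.0336), a call that held in 7 of 21 alternatives. Il1rn, the secreted antagonist of the IL-1 receptor, read 0.336 and 0.875 RPKM with mSTING and 7.59 and 6.67 with zfCTT (2.36 ± 0.20, adjusted p = 0.0216). In Il1rn the mSTING libraries lay within or below the 0.639 to 0.938 RPKM of the 4 libraries without a tailed STING. Cd274, which encodes PD-L1, read 0.652 and 0.576 RPKM with mSTING and 8.84 and 5.51 with zfCTT (2.31 ± 0.21, adjusted p = 0.0232). Stx11, a syntaxin of vesicle fusion in immune cells, read 1.06 and 0.957 against 7.05 and 5.57 RPKM (1.86 ± 0.20, adjusted p = 0.0377). Its call was among the least stable of those named, past the threshold in 3 of 20 alternatives.

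The MHC class II chains present peptides to helper T cells. H2-Eb1 read 0.201 and 0.354 RPKM with mSTING and 5.22 and 6.14 with zfCTT (2.39 ± 0.22, limma, adjusted p = 0.0232), and H2-Aa 0.182 and 0.357 against 5.003 and 5.52 RPKM (2.30 ± 0.26, adjusted p = 0.0409). Both mSTING libraries of H2-Eb1 were below the 4 libraries without a tailed STING, which had 0.546 to 1.43 RPKM. For H2-Aa those 4 had 0.307 to 1.44 RPKM, which took in the higher mSTING value. The call of H2-Aa held in 7 of 18 alternatives and that of H2-Eb1 in 10 of 18. H2-Ab1, the partner chain of H2-Aa, read 0.222 and 0.603 against 2.92 and 5.79 RPKM and was not called (1.88 ± 0.42, adjusted p = 0.238). Of 6 tested genes of class II presentation, 5 had both zfCTT libraries above both mSTING libraries, against 25.2% of all genes, and 3 of the 6 had passed the minimum only through zfCTT. The median difference of the 6 was 1.24, but 0.32 without zfCTT replicate 1 and 0.58 without zfCTT replicate 2, when the members past the minimum also differ.

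The remaining genes that rose belong to no common list. Ppic, a cyclophilin, read 0.529 and 1.32 RPKM with mSTING and 14.3 and 8.89 with zfCTT (2.71 ± 0.28, limma, adjusted p = 0.0336). Lmo1, a transcriptional cofactor, read 0.578 and 0.153 against 10.1 and 5.83 RPKM (2.69 ± 0.32, adjusted p = 0.0497), and Hmgn3, a nucleosome-binding protein, 0.152 and 0.152 against 9.90 and 4.21 (2.71 ± 0.32, adjusted p = 0.0497). The calls of Lmo1 and Hmgn3 held in 4 and 6 of 18 alternatives and that of Ppic in 9 of 21. For Lmo1 and Hmgn3 the fits without a zfCTT library are not among the 18. Hmgn3 shares exonic sequence with the gene model Gm29054, which was called as well, and reads of the pair cannot be told apart without a strand setting. Named after their values were seen, to complete the 20, were Cdc42ep2, an effector of the GTPase CDC42 (2.03 ± 0.13, adjusted p = 0.00744), the transcription factor Sox12 (2.33), the protease inhibitor Spint1 (2.01), the protein C receptor Procr (1.68), the class I-like gene H2-M2 (1.19) and the gene model Gm36079 (2.82). Of these, Procr held in 4 of 21 alternatives, H2-M2 in 4 of 18 and Cdc42ep2 in 14 of 18. The fits without a zfCTT library are not among the 18 of H2-M2 and Cdc42ep2 either. Of the 20, 9 were members of a list used here and 11 of none.

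Among the genes that fell was Dlx2, a homeobox transcription factor (ENSMUSG00000023391, chr2:71543408-71546754, minus strand), which read 8.01 and 6.90 RPKM with mSTING and 1.22 and 1.59 with zfCTT (−1.81 ± 0.19, limma, adjusted p = 0.0336). The 4 libraries without a tailed STING lay between, at 2.40 to 3.49 RPKM, so that mSTING was above and zfCTT below them, and the call held in 8 of 20 alternatives. Downward calls were 0.0157% of the genes tested.

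The number of calls moved with the libraries in the fit. With only the 4 libraries compared, and likewise without zfCTT replicate 1 or mSTING replicate 2, limma called 0 genes, while 1481 of the 12759 had an unadjusted p under 0.05 in the fit over all 8 libraries (638 if p-values were uniform). There were 5 calls without either library of the no-transgene group, 7 without either dCTT library or mSTING replicate 1, and 24 without zfCTT replicate 2. limma's voom on the recovered reads called 9 genes, all among the 22, and so also 0 in each list below that has 0 calls. Differences that do not depend on this count are given below by whether the libraries of the 2 groups overlap. Both zfCTT libraries lay above both mSTING libraries in 25.2% of genes and below them in 24.7%. Genes apart by at least 1 in log2 as well were fewer and uneven, at 452 higher (3.54%) and 122 lower (0.956%). Of all genes tested, 231 passed the RPKM minimum only through zfCTT and 113 only through mSTING. Such genes could lie apart in 1 direction only, so the filter set part of these counts. Each list's count at an unadjusted p under 0.05 is to be read beside the 1481 of 12759. The lists below were chosen with earlier results of these data known, so their shares beside those of all genes are descriptions.

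**Figure D2:**
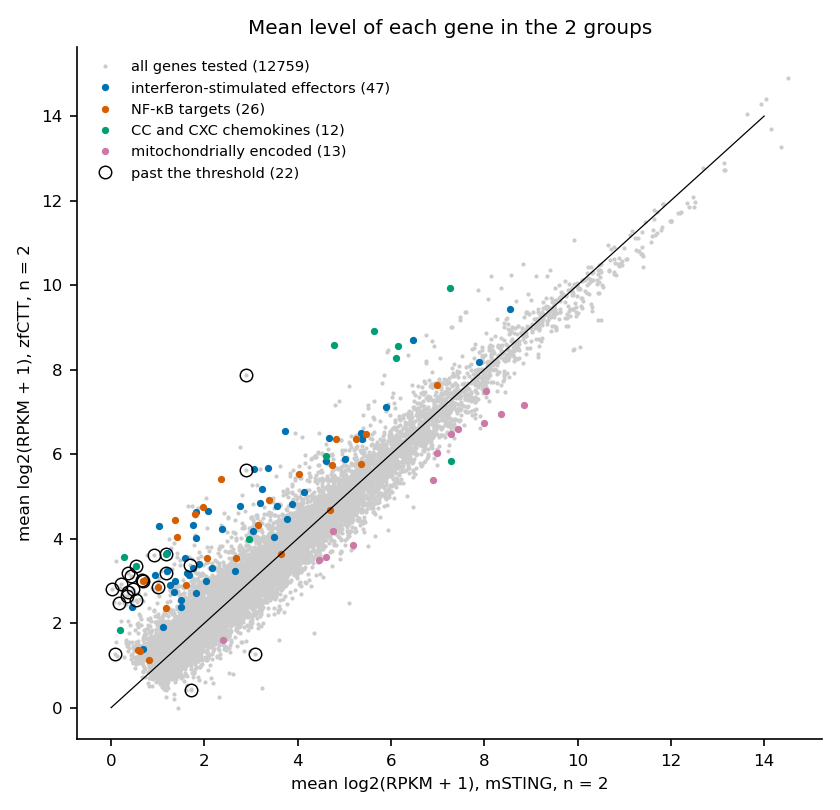
Mean log2(RPKM + 1) of each of the 12759 genes with mSTING (horizontal) and with zfCTT (vertical), n = 2 libraries each, with 4 gene lists coloured and the 22 called genes circled; the line marks equal levels. Interferon-stimulated effectors, 24 of the 26 NF-κB targets and most chemokine genes lie above the line, and the 13 mitochondrially encoded genes lie below it.

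The interferon arm was examined first, from the interferon gene to its targets, and the promoters of 3 of its genes and of the called chemokine Cxcl2 are shown because each carries a motif through which NF-κB or the interferon factors are known to bind. Each line gives 200 bases of the RefSeq promoter (GRCm38.p6), from 250 to 51 bases before the annotated start, 5′ to 3′ on the gene's strand, with matches to the κB consensus or to GAAANNGAA (interferon-stimulated response element, ISRE) in capitals. Both motifs were searched on both strands, and overlapping matches run together.
Ifnb1 (chr4:88522845-88523044, minus strand): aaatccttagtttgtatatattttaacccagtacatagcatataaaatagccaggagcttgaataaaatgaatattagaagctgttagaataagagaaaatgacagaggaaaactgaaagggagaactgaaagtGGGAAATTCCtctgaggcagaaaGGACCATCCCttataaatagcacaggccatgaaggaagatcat
Cxcl10 (chr5:92348940-92349139, minus strand): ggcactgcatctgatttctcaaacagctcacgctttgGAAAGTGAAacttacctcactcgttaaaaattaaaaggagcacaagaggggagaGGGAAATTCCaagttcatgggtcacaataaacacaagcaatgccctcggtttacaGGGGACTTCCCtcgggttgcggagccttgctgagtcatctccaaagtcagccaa
Isg15 (chr4:156200869-156201068, minus strand): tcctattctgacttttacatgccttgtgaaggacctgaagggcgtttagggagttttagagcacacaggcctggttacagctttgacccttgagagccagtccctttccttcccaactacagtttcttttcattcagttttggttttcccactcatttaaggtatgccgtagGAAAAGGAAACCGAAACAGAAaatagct
Cxcl2 (chr5:90903649-90903848, plus strand): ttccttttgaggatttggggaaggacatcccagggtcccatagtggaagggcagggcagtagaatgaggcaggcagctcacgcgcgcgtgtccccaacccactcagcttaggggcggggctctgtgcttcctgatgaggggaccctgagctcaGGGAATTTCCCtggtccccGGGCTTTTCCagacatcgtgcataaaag
In these stretches Ifnb1 held 2 κB matches, Cxcl10 held 2 κB stretches and 1 ISRE match, Isg15 held 1 ISRE stretch and Cxcl2 held 2 κB stretches. Shares were counted over the whole 250 bases before the start. Of all 32851 such windows, 23.2% held the κB motif and 7.13% the ISRE, and of the 7453 tested genes with a window 32.1% and 7.42%. Of the 39 interferon-stimulated effector genes with a window, 19 held the ISRE (48.7%) and 14 the κB motif (35.9%). Of the 15 genes called higher with a window, 7 held the κB motif (46.7%) and 1 the ISRE (6.67%). A match is a description of the letters in this window and not of binding. The ISRE pattern fixes the gap between GAAA and GAA at 2 bases, so sites with another gap were not marked. In the Ifnb1 stretch, with 0 ISRE matches, GAAA and GAA also stand 3 bases apart. The lack of a match therefore does not show that a site for interferon factors is absent.

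Ifnb1, interferon beta (ENSMUSG00000048806, chr4:88522025-88522774, minus strand), read 0.0605 and 0.0907 RPKM with mSTING, which is 4 and 6 reads, and 18.7 and 5.17 RPKM with zfCTT, which is 281 and 135 reads. It was at 0 in all 4 libraries without a tailed STING. Ifnb1 passed the minimum only through zfCTT, so the libraries of the 2 tails could not overlap. Depth-scaled reads were 134 times higher with zfCTT (exact 95% binomial interval 71.98 to 281, counting error only). The log2 difference of 3.36 ± 0.47 did not pass the limma test (adjusted p = 0.0838). The 2 zfCTT libraries also lay apart from each other, replicate 1 being the higher. None of the other 9 interferon genes listed reached the minimum.

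**Figure D3:**
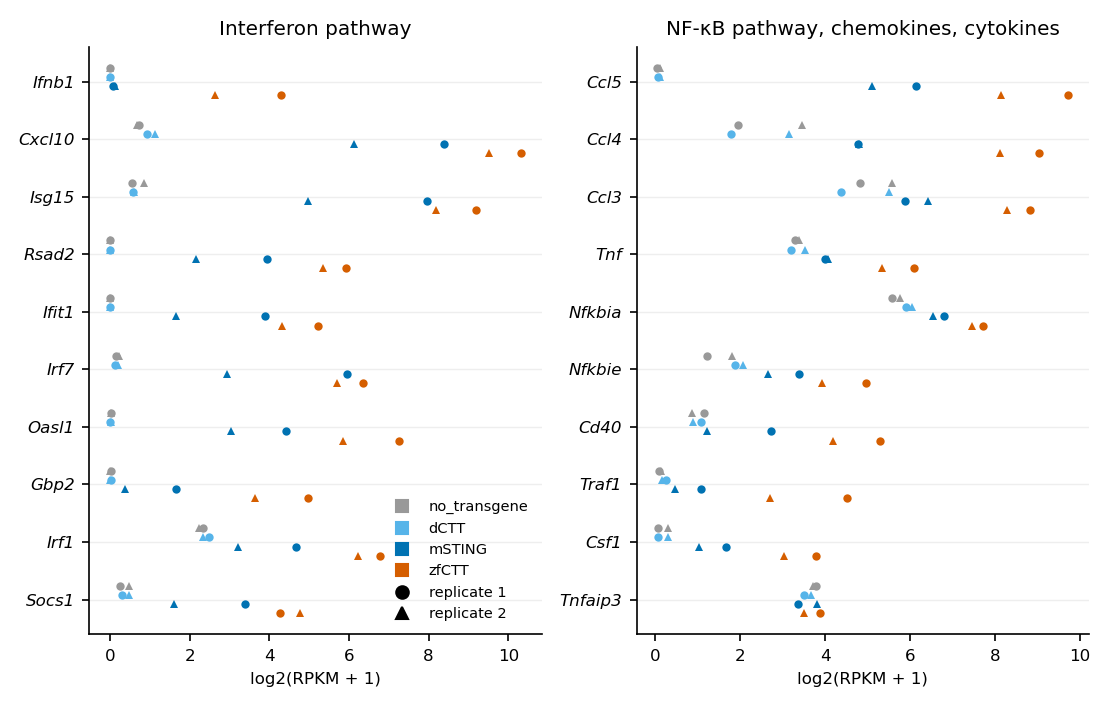
Level of 10 interferon pathway genes (left) and 10 NF-κB pathway, chemokine and cytokine genes (right), as log2(RPKM + 1), in the 8 libraries. The 2 zfCTT points stand right of the 2 mSTING points in every gene but Irf7 and Tnfaip3, and the mSTING points lie far apart for Isg15, Irf7 and Cxcl10 but nearly together for Ccl4 and Tnf.

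Of 55 genes listed as interferon-stimulated effectors 47 were tested and 0 were called, with 37 at an unadjusted p under 0.05. All 47 had a positive difference, 37 had both zfCTT libraries above both mSTING libraries (78.7%, against 25.2% of all genes) and 29 of these were apart by at least 1 in log2 (61.7%, against 3.54%). The median difference was 1.52, beside 0.0129 for all genes, and it was 1.07 without zfCTT replicate 1 and 0.77 without mSTING replicate 2. Over the mean of the 4 libraries without a tailed STING, the median rise of the list was 1.23 for mSTING and 2.69 for zfCTT. Both mSTING libraries lay above those 4 in 43 of the 47 genes (against 8.74% of all genes) and both zfCTT libraries in all 47 (against 15.6%). Of the 47, 1 had passed the minimum only through zfCTT.

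The 2 mSTING libraries differed from each other in these genes. Isg15, a ubiquitin-like protein conjugated to other proteins during infection, read 247 and 30.5 RPKM with mSTING and 582 and 292 with zfCTT. Both zfCTT values were higher, but the difference of 2.22 ± 0.88 was not past the threshold (limma, adjusted p = 0.416). Cxcl10, a chemokine for activated T cells, read 335 and 68.9 RPKM with mSTING and 1275 and 734 with zfCTT (2.66 ± 0.68, adjusted p = 0.303). Cxcl10 shares exonic sequence with Art3, so its value is uncertain to that extent. Irf7, the factor that amplifies interferon transcription, read 60.5 and 6.61 RPKM with mSTING and 81.0 and 51.3 with zfCTT, so that the groups overlapped (1.60 ± 0.86, adjusted p = 0.475). In each of these 3 genes the low value was mSTING replicate 2.

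Rsad2, the antiviral enzyme viperin, and Ifit1, which binds foreign RNA, were at 0 in all 4 libraries without a tailed STING. Rsad2 read 14.5 and 3.46 RPKM with mSTING and 59.9 and 39.6 with zfCTT (2.58 ± 0.54, limma, adjusted p = 0.203), and Ifit1 read 13.7 and 2.17 against 36.1 and 18.9 (1.99 ± 0.67, adjusted p = 0.389). Gbp2, a guanylate-binding GTPase, had a larger distance, with 2.17 and 0.307 RPKM against 30.2 and 11.4 (3.27 ± 0.52, adjusted p = 0.116). Irgm2, an immunity-related GTPase, came nearest to the threshold in the list, with 4.04 and 2.56 RPKM against 31.6 and 18.1 (2.56 ± 0.31, adjusted p = 0.0529). Oasl1 read 20.4 and 7.19 against 152 and 56.4 RPKM (2.82 ± 0.56, adjusted p = 0.184). None of these libraries overlapped between the tails. Irgm2 and Oasl1 share exonic sequence with Igtp and Gm13822, and members of the Ifit, Oas and Gbp families resemble each other, so their reads could be split between genes.

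Among 16 genes of interferon signalling 0 were called (7 at an unadjusted p under 0.05), 8 had the zfCTT libraries above and 4 below, and the median difference was 0.62, or 0.16 without mSTING replicate 2. Irf1, a factor induced by interferons and by NF-κB, read 24.6 and 8.21 RPKM with mSTING and 109 and 74.3 with zfCTT (2.57 ± 0.46, limma, adjusted p = 0.150), with Gm17334 overlapping it. The feedback inhibitor Socs3 read 9.50 and 6.29 RPKM with mSTING and 40.02 and 35.3 with zfCTT (2.14 ± 0.31, adjusted p = 0.0838). Its mSTING values were near the 3.80 to 6.62 RPKM of cells without a tailed STING. Socs1, the related inhibitor, read 9.44 and 2.06 against 18.2 and 26.5 RPKM (2.02 ± 0.53, adjusted p = 0.318), with both groups above the highest of the cells without a tailed STING, 0.387.

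The signalling proteins that the tails are known to engage had differences in RNA of at most 0.63 in size. Named as members of the pathway after their values were seen, Tbk1 read 4.36 and 4.96 RPKM with mSTING and 4.60 and 5.59 with zfCTT (0.10 ± 0.17, limma, adjusted p = 0.794, or −0.01 without zfCTT replicate 2). Irf3 read 8.49 and 7.44 against 5.06 and 6.48 RPKM (−0.41 ± 0.19, adjusted p = 0.444), and Traf6 1.22 and 1.90 against 2.76 and 1.95 (0.40 ± 0.21, adjusted p = 0.469). Of these 3, only Tbk1 overlapped between the tails. Ikbke, the kinase most like TBK1, read 1.23 and 1.22 RPKM with mSTING and 2.196 and 2.71 with zfCTT (0.63 ± 0.17, adjusted p = 0.334). Over the 17 tested genes of STING and nucleic acid sensing 0 were called (8 at an unadjusted p under 0.05), and the median was 0.50. Of them 11 had zfCTT above (64.7%, against 25.2% of all genes) and 1 below (5.88%, against 24.7%).

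The NF-κB arm was then read from its subunits to its targets. The 5 subunits of the family, named after their values were seen, had small differences, with Nfkb1 at 18.8 and 13.4 RPKM with mSTING and 37.7 and 20.3 with zfCTT (0.77 ± 0.31), Nfkb2 at 25.0 and 13.4 against 34.9 and 23.9 (0.63 ± 0.32), Relb at 10.3 and 7.60 against 17.1 and 12.1 (0.64 ± 0.26), Rel at 1.11 and 1.09 against 1.62 and 1.66 (0.33 ± 0.15) and Rela at 53.7 and 51.1 against 66.0 and 62.1 (0.28 ± 0.20). Nfkb2 alone overlapped between the tails. Nfkbia, the inhibitor IκBα and a rapid NF-κB target (ENSMUSG00000021025, chr12:55489410-55492647, minus strand), stood at 46.7 and 53.4 RPKM in cells without transgene, at 58.9 and 64.9 in dCTT, at 109.5 and 91.6 in mSTING and at 209 and 176 in zfCTT cells. Its 3 levels did not overlap, and the zfCTT step was 0.93 ± 0.19 (limma, adjusted p = 0.191). Nfkbie, the inhibitor IκBε, read 9.50 and 5.37 RPKM with mSTING and 30.0 and 14.3 with zfCTT (1.41 ± 0.41, adjusted p = 0.351). Of the 15 subunits and inhibitors 0 were called (6 at an unadjusted p under 0.05), and the median was 0.33. In 10 zfCTT lay above (66.7%, against 25.2% of all genes) and in 1 below (6.67%, against 24.7%).

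The brakes of the pathway did not all go in 1 direction, with 7 positive and 3 negative differences. Tnfaip3, which encodes the deubiquitinase A20, read 9.35 and 13.1 RPKM with mSTING and 13.8 and 10.5 with zfCTT, which overlapped (0.11 ± 0.22, limma, adjusted p = 0.841), and its sign turned without mSTING replicate 1 (−0.11) or zfCTT replicate 1 (−0.07). Of 10 tested feedback regulators 0 were called (2 at an unadjusted p under 0.05), 4 lay above and 1 below, and the median of 0.14 was −0.02 without zfCTT replicate 1, 0.03 without mSTING replicate 1 and 0.29 without zfCTT replicate 2. Among the TRAF adaptors and cIAP ligases, Traf1, an adaptor induced by NF-κB, stood at 0.0736 and 0.106 RPKM in cells without transgene, 1.12 and 0.386 with mSTING and 21.8 and 5.51 with zfCTT (2.83 ± 0.54, adjusted p = 0.164). The cIAP ligase Birc3 read 4.00 and 2.67 against 19.8 and 7.19 RPKM (1.61 ± 0.45, adjusted p = 0.346). Of these 11 genes 0 were called (4 at an unadjusted p under 0.05), with a median of 0.37 (0.22 without zfCTT replicate 1). Above lay 7 (63.6%, against 25.2% of all genes) and below 1 (9.09%, against 24.7%).

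Of 34 listed NF-κB target genes outside the cytokines, 26 were tested and 2 were called, Cd274 and Stx11 (0.172% of all genes were called). In 23 of the 26 both zfCTT libraries lay above both mSTING libraries (88.5%, against 25.2% of all genes) and in 0 below, and 17 were apart by at least 1 in log2 (65.4%, against 3.54%). The median was 1.25, and 1.09 and 1.12 without zfCTT replicate 1 and without mSTING replicate 2. Over the cells without a tailed STING, the median rise was 0.26 for mSTING and 1.74 for zfCTT. Both mSTING libraries lay above all 4 of those libraries in 11 of the 26 genes, against 8.74% of all genes. Of the 26, 5 passed the minimum only through zfCTT and had to differ, the called Cd274 among them.

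Cd40, a receptor for T cell help, read 5.66 and 1.33 RPKM with mSTING and 38.2 and 17.3 with zfCTT (2.77 ± 0.54, limma, adjusted p = 0.175). Slc2a6, a hexose transporter of the lysosome, read 10.5 and 8.48 against 28.2 and 30.4 RPKM (1.54 ± 0.21, adjusted p = 0.0717), and mSTING replicate 2 lay within the 5.73 to 9.06 RPKM of the cells without a tailed STING. Ptgs2, the inducible cyclooxygenase, stayed low, with 0.399 and 0.572 against 1.74 and 1.44 RPKM (0.80 ± 0.16, adjusted p = 0.175). None of these 3 overlapped between the tails, but Ptgs2 passed the minimum only through zfCTT and could not overlap. Nos2, the inducible nitric oxide synthase, missed the minimum, with 0.0154 and 0.00514 RPKM against 0.961 and 0.267.

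**Figure D4:**
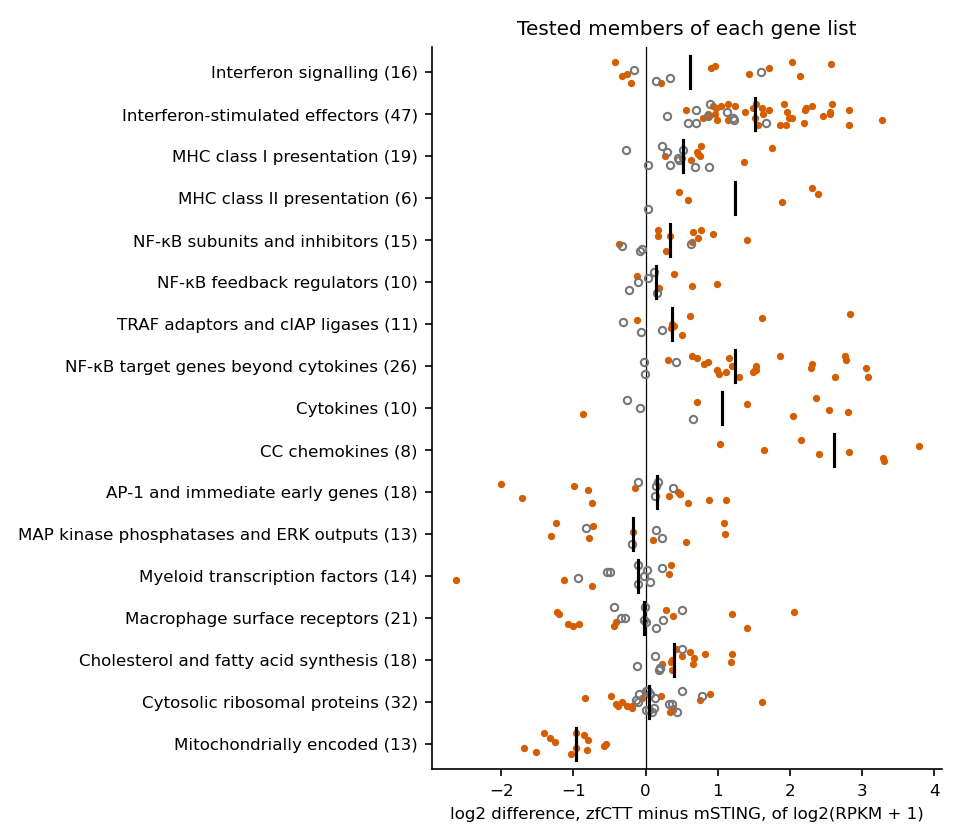
Difference in log2(RPKM + 1), zfCTT minus mSTING, of each tested member of 17 gene lists, with the number tested in brackets. Filled points are genes whose 2 groups of libraries do not overlap, open points genes whose groups overlap, and bars are medians; CC chemokines have the highest median (2.61) and mitochondrially encoded genes the lowest (−0.97).

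CC chemokines had the highest median of the lists with at least 5 tested members. Of 12 listed 8 were tested, 3 of them only through zfCTT, and all 8 were apart by at least 1 in log2, against 3.54% of all genes. The 1 called, Ccl7, was among the 3 (0.172% of all genes were called). The median difference was 2.61, with 2.42 without zfCTT replicate 1 and 2.73 without mSTING replicate 2. Over the cells without a tailed STING it was 0.68 for mSTING and 3.43 for zfCTT.

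Ccl4 and Ccl3 attract monocytes and T cells. Ccl4 stood at 2.90 and 9.99 RPKM in cells without transgene, 2.48 and 7.91 with dCTT, 26.4 and 26.8 with mSTING and 519 and 278 with zfCTT (3.79 ± 0.62, limma, adjusted p = 0.120). Ccl3 started higher, at 27.5 and 46.9 RPKM in cells without transgene, and read 58.4 and 84.8 with mSTING and 452 and 312 with zfCTT (2.40 ± 0.45, adjusted p = 0.163). Ccl5, a chemokine that answers to both IRF and NF-κB factors, read at most 0.0926 RPKM in the 4 libraries without a tailed STING, 69.3 and 33.7 with mSTING and 840.2 and 279 with zfCTT (3.30 ± 0.54, adjusted p = 0.120). In all 3 the zfCTT libraries were the highest of the 8 and replicate 1 was the higher of the 2.

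The rest of the tested CC chemokines are named to complete the family, after their values were seen. Ccl2, a major attractant of monocytes, read 61.7 and 75.6 RPKM with mSTING and 253 and 371 with zfCTT (2.15 ± 0.76, limma, adjusted p = 0.395). Ccl12, its close relative, read 0.296 and 0.127 against 22.8 and 4.92 RPKM (3.30 ± 0.58, adjusted p = 0.144), and Ccl22, which attracts regulatory T cells, 0.161 and 0.132 against 4.01 and 1.56 (1.64 ± 0.29, adjusted p = 0.149). Of these, Ccl12 and Ccl22 were near the low level of cells without a tailed STING in mSTING and above it in zfCTT. Both passed the minimum only through zfCTT, so zfCTT had to lie above mSTING in them. Ccl9 read 5.15 and 8.67 against 16.4 and 13.3 RPKM (1.03 ± 0.29, adjusted p = 0.341).

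Of 11 CXC chemokines 4 were tested, 3 with zfCTT above (against 25.2% of all genes) and 1 below (against 24.7%). The exception was Cxcl14, a chemokine made at rest in many tissues, which read 189 and 127 RPKM with mSTING, 112 to 143 in cells without a tailed STING and 50.3 and 62.3 with zfCTT (−1.45 ± 0.25, limma, adjusted p = 0.140). The median of the 4 was 1.91, or 1.23 without mSTING replicate 2.

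Tnf, the founding ligand of its family (ENSMUSG00000024401, chr17:35199381-35202007, minus strand), read 8.26 to 10.5 RPKM in the 4 libraries without a tailed STING, 14.9 and 15.9 with mSTING and 66.8 and 39.3 with zfCTT. The 3 levels did not overlap, and the difference between the tails was 1.67 ± 0.27 (limma, adjusted p = 0.118). Ltb, lymphotoxin beta, read 0.681 and 0.292 RPKM with mSTING and 6.12 and 3.56 with zfCTT (1.95 ± 0.25, adjusted p = 0.0587), and here the mSTING values spanned the 0.326 to 0.569 RPKM of the cells without a tailed STING. Tnfsf9, the ligand of 4-1BB, read 10.7 and 17.4 against 34.9 and 31.5 RPKM (1.22 ± 0.30, adjusted p = 0.288). These 3 were the tested members of 11, and their median was 1.67. Ltb passed the minimum only through zfCTT and had to differ.

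Among 21 cytokine genes 10 were tested and 2 were called higher, Il12b and Il1rn (0.172% of all genes were called). Both passed the minimum only through zfCTT, so that they could be called in no other direction. Of the 10 tested, 6 had zfCTT above (against 25.2% of all genes) and 1 below (against 24.7%). The median was 1.06, or 0.31 without zfCTT replicate 1, when fewer members passed the minimum. Il27, the p28 chain of IL-27, read 2.61 and 0.800 RPKM with mSTING and 16.02 and 12.05 with zfCTT (2.55 ± 0.33, limma, adjusted p = 0.0623), and its exons overlap Apobr. Csf1, the macrophage growth factor, read 0.0578 to 0.249 RPKM in cells without a tailed STING, 2.22 and 1.04 with mSTING and 12.7 and 7.17 with zfCTT (2.05 ± 0.31, adjusted p = 0.103). Il6 and Il1b, common readouts of NF-κB in macrophages, missed the minimum. Il6 read 0.0187 and 0.00934 RPKM with mSTING and 0.123 and 0.0237 with zfCTT, and Il1b 0.113 and 0.0357 against 3.30 and 0.241, where zfCTT replicate 1 alone was high.

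MHC class I molecules show peptides from inside the cell to cytotoxic T cells. Of 19 tested genes of class I presentation 0 were called (3 at an unadjusted p under 0.05), 9 had zfCTT above (47.4%, against 25.2% of all genes) and 0 below (against 24.7%). The median was 0.51, or 0.11 without mSTING replicate 2, 0.25 without zfCTT replicate 1, 0.78 without zfCTT replicate 2 and 0.998 without mSTING replicate 1. Tap1, the peptide transporter, read 13.6 and 4.24 RPKM with mSTING and 26.8 and 17.3 with zfCTT (1.37 ± 0.46, limma, adjusted p = 0.389), with Psmb9 overlapping it. Nlrc5, the transactivator of class I genes, read 1.63 and 1.38 against 3.86 and 2.64 RPKM (0.75 ± 0.20, adjusted p = 0.324).

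How far a list depended on single libraries was read from the 4 pairs of 1 zfCTT and 1 mSTING library. For the interferon-stimulated effectors the median difference was 1.10 and 2.53 for zfCTT replicate 1 against mSTING replicates 1 and 2, and 0.43 and 1.67 for zfCTT replicate 2. The interferon difference was thus smallest against mSTING replicate 1 and largest against mSTING replicate 2. For the CC chemokines the same 4 pairs gave 2.96, 2.61, 2.30 and 2.34, and for the NF-κB targets 1.28, 1.67, 0.94 and 1.06, which is a narrower range. For MHC class I they gave 0.41, 1.21, −0.05 and 0.72, so that 1 pair was below 0.

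**Figure D5:**
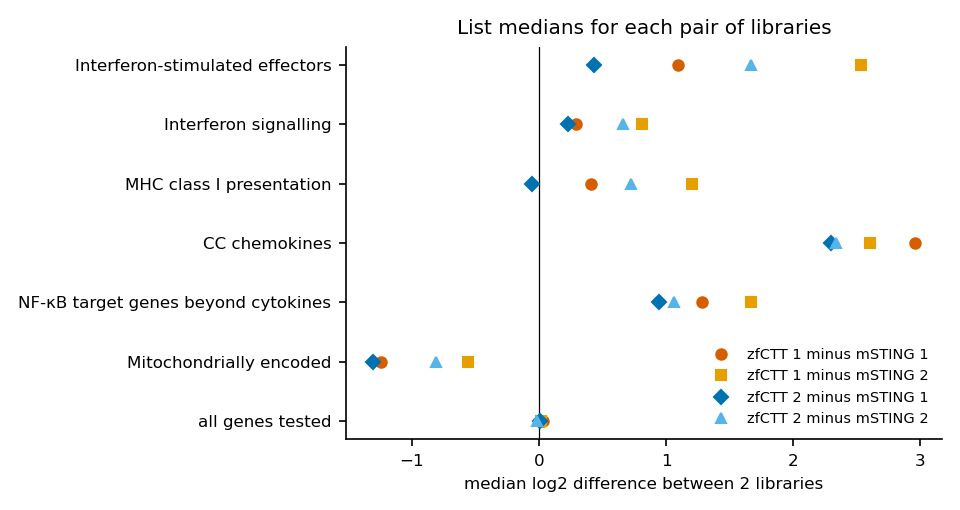
Median log2 difference of 6 gene lists and of all genes tested, for each of the 4 pairs of 1 zfCTT and 1 mSTING library. Interferon-stimulated effectors spread from 0.43 to 2.53, CC chemokines from 2.30 to 2.96, and all genes tested from −0.02 to 0.04.

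Cebpa was lower with zfCTT without passing the test. It encodes C/EBPα, a transcription factor of the myeloid lineage (ENSMUSG00000034957, chr7:35119293-35121928, plus strand), and stood at 24.9 and 42.8 RPKM in cells without transgene, 27.5 and 43.6 with dCTT, 32.8 and 33.8 with mSTING and 3.06 and 6.50 with zfCTT. The zfCTT libraries were far below the other 6, a difference of −2.63 ± 0.39 from mSTING (limma, adjusted p = 0.0914). Its transcript has 62.6% GC, it overlaps the gene model Gm45091, and the median difference of the 744 genes over 60% GC was −0.309, beside −0.0104 for the 6355 genes of 50 to 60%, 0.10 for the 5204 genes of 40 to 50% and −0.0957 for the 439 genes at or below 40%. A fit with the GC trend removed was run over all genes, and its number of calls is given further on. The part of GC content in the difference of this and the other GC-rich genes was not tested. Of 14 myeloid transcription factors tested 0 were called (2 at an unadjusted p under 0.05), 2 had zfCTT above (14.3%, against 25.2% of all genes) and 3 below (21.4%, against 24.7%). The median was −0.11, or 0.08 without zfCTT replicate 1 and −0.50 without zfCTT replicate 2. Cebpd, a relative of Cebpa named after its value was seen (−0.74), and Hes1, described further on, were the others of the list below in both zfCTT libraries.

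Hspb7, a small heat shock protein, and Nkx1-1, a homeobox factor, had their highest levels with mSTING. Hspb7 read 4.56 and 15.2 RPKM with mSTING, 0.0912 to 0.967 in cells without a tailed STING and 0.252 and 0.529 with zfCTT (−2.78 ± 0.53, limma, adjusted p = 0.164). Nkx1-1, at 72.5% GC, read 5.26 and 5.07 RPKM with mSTING, 1.37 to 2.47 without a tailed STING and 0.371 and 1.21 with zfCTT (−1.82 ± 0.24, adjusted p = 0.0717). In Hspb7 zfCTT lay among the cells without a tailed STING, and in Nkx1-1 it lay below them.

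Genes that report on ERK signalling, the growth factor branch of the MAP kinases, were divided. Egr1, an immediate early factor, read 11.6 and 10.7 RPKM with mSTING and 0.868 and 3.91 with zfCTT (−2.003 ± 0.42, limma, adjusted p = 0.203), and the related Egr3 2.89 and 7.58 against 0.385 and 1.26 (−1.71 ± 0.63, adjusted p = 0.402). Dusp6, a phosphatase that limits ERK, read 20.6 and 21.8 RPKM with mSTING, 21.1 to 28.8 in cells without a tailed STING and 5.84 and 10.8 with zfCTT (−1.31 ± 0.29, adjusted p = 0.238). Etv4, an ETS factor downstream of ERK, read 4.87 and 7.35 against 1.53 and 2.45 RPKM (−1.25 ± 0.24, adjusted p = 0.164). In all 4 the zfCTT libraries lay below the other 6. Spry1, an inhibitor of the same pathway, had the opposite sign, with 0.223 and 0.527 against 2.21 and 1.67 RPKM (1.10 ± 0.17, adjusted p = 0.115). Spry1 passed the minimum only through zfCTT, so its sign was set by the filter. Of 13 tested MAP kinase phosphatases and ERK outputs 0 were called (6 at an unadjusted p under 0.05), 4 lay above (30.8%, against 25.2% of all genes) and 5 below (38.5%, against 24.7%). The median of −0.17 was 0.05 without mSTING replicate 2 and −0.28 without zfCTT replicate 1. Of 18 AP-1 and immediate early genes 0 were called (7 at an unadjusted p under 0.05), 7 lay above (38.9%, against 25.2% of all genes) and 6 below (33.3%, against 24.7%). Their median of 0.16 was 0.07 without mSTING replicate 2, 0.25 without zfCTT replicate 2 and 0.31 without mSTING replicate 1.

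Hes1, a repressor downstream of Notch and other signals, stood at 3 levels that did not overlap, with 3.61 to 5.47 RPKM in cells without a tailed STING, 1.16 and 1.97 with mSTING and 0.0490 and 0.268 with zfCTT (−1.13 ± 0.27, limma, adjusted p = 0.264). Among 21 tested surface receptors of macrophages 0 were called (6 at an unadjusted p under 0.05), 5 had zfCTT above (23.8%, against 25.2% of all genes) and 7 below (33.3%, against 24.7%). The median was −0.02, ranging from −0.40 without mSTING replicate 1 to 0.14 without zfCTT replicate 1. Itgb5, an integrin subunit, read 34.8 and 24.9 RPKM with mSTING and 11.2 and 12.8 with zfCTT (−1.23 ± 0.20, adjusted p = 0.120), and the checkpoint receptor Vsir 5.49 and 4.37 against 1.61 and 2.32 (−1.005 ± 0.25, adjusted p = 0.295). Both mSTING values of Vsir also lay below the 7.30 to 11.2 RPKM of cells without a tailed STING. Fcgr4, an activating Fc receptor, was higher, with 1.24 and 0.831 RPKM against 10.7 and 5.08 (2.06 ± 0.34, adjusted p = 0.121).

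All 13 mitochondrially encoded messages lay lower in both zfCTT libraries than in both mSTING libraries, against 24.7% of all genes, and 0 were called (8 at an unadjusted p under 0.05). They are transcribed together from the mitochondrial genome and are not independent. Their median difference was −0.97, with −1.02 without zfCTT replicate 1 and −1.40 without mSTING replicate 2, and both zfCTT libraries were also below all 4 libraries without a tailed STING in all 13, against 15.5% of all genes. mt-Cytb, the cytochrome b of complex III, read 460.5 and 457 RPKM with mSTING, 412 to 641 without a tailed STING and 107 and 189 with zfCTT (−1.69 ± 0.29, limma, adjusted p = 0.142). mt-Atp6, of the ATP synthase, read 279.9 and 232 against 111 and 100.4 RPKM (−1.26 ± 0.18, adjusted p = 0.0880), with mt-Atp8 and mt-Co3 overlapping it. The median GC of the 13 was 37.1%, against 51.0% for all genes tested. The genes used as a check of level, Actb and Gapdh, differed by 0.13 ± 0.18 and −0.08 ± 0.20 (adjusted p = 0.757 and 0.875), and the sign of Gapdh turned without mSTING replicate 1 (0.04).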

How the data were processed

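RNA of 8 libraries was sequenced as polyadenylated single-end libraries. The authors deposited 1 table of RPKM, reads per kilobase scaled to depth. Per the submitters' processing notes, Cutadapt 1.16 and HISAT2 2.1.0 were used with GRCm38 or mm10. Not given in the sources used here are the counting tool, the annotation release and the strand setting, so that genes sharing exonic sequence cannot be separated. Symbols, coordinates and GC content came from the GENCODE annotation of GRCm38, which matched 53620 of 53715 identifiers and left 95 unnamed, and promoter sequences from RefSeq.

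RPKM are not counts, so limma 3.58.1 in R 4.3.3 was run on log2(RPKM + 1), with 8 libraries in 1 fit of 4 group means (4 residual degrees of freedom), an intensity trend, a two-sided moderated test and Benjamini-Hochberg adjustment over 12759 genes. The pseudocount of 1 understates changes of low genes. The highest but 1 of the 4 values was 1 to 1.1 RPKM in 243 genes inside the rule and 0.9 to 1 in 264 genes outside it. RPKM times exon length gave whole multiples of 1 read, within 0.05 read, for 95.0% to 95.6% of nonzero values. Between the 2 libraries of a group, 78.7% (mSTING) and 73.0% (zfCTT) of genes with at least 100 reads in both together differed beyond counting error, so neither group was 1 library deposited again. The scripts were tested on simulated data.

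Genes named were drawn from the 10 largest differences in each direction among genes whose groups do not overlap (called genes first, a mean of at least 5 RPKM in the higher group, no unnamed models), from up to 3 members of each list by smallest p, and from a set of pathway genes, with additions said to be so. Not all of these are described above. Of the downward 10, those left out were Mir692-1 (−1.73), Lyl1 (−1.72) and Emilin1 (−1.635), at 62.4%, 62.6% and 61.1% GC. With zfCTT they read 8.69 and 72.8, 8.15 and 36.7, and 0.475 and 3.35 RPKM, replicate 1 being the lower in each. Of the genes called, 1 is not reported here by name. The members and lists were chosen with earlier results of these data known. Alternatives were other pseudocounts, filters, scalings, libraries and tools.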

Additional observations from a re-analysis of the deposited data

How the results depend on the processing

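The 22 calls (20 higher, 2 lower) depended on the fit. There were 6 (6 and 0) with a pseudocount of 0.1, 15 (14 and 1) with 0.5, 29 (14 and 15) without a filter on low values, 2 (2 and 0) at a mean of at least 5 RPKM, 16 (15 and 1) with the filter over 8 libraries, 18 (17 and 1) without the intensity trend, 20 (18 and 2) after median-centring, 70 (61 and 9) among protein-coding genes alone, 9 (9 and 0) with voom and 0 (0 and 0) with only the 4 libraries compared. Leaving out 1 library gave 0 to 24 calls (0 to 17 higher, 0 to 7 lower). Same-numbered libraries deviated together unevenly (r across genes from 0.02 to 0.76, and 0.26 for mSTING with zfCTT), so the numbers were not taken to pair samples. With the replicate number as a block there were 52 calls (44 and 8). Alternatives chosen after seeing the data gave 18 (16 and 2) with the GC trend removed, 56 (47 and 9) with the GC trend removed and the replicate block together, and the fits without a dCTT or no-transgene library.

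The medians of the interferon-stimulated effectors, NF-κB targets, CC chemokines and mitochondrially encoded genes kept their sign in every alternative run. That of the CC chemokines was 3.37 with a pseudocount of 0.1, 2.15 without a filter and 3.55 with voom, and 2.42 to 2.73 without 1 library. That of the NF-κB targets was 1.57 with a pseudocount of 0.1 and 1.59 with voom, and 1.09 to 1.48 without 1 library. The interferon-stimulated effectors ranged from 0.77 to 2.07 and the mitochondrially encoded genes from −1.40 to −0.68 without 1 library. Signs turned without mSTING replicate 1 in Tmem173 (−0.35), Tnfaip3 (−0.11) and Gapdh (0.0403), without zfCTT replicate 1 in Tnfaip3 (−0.07) and the feedback regulators (−0.0247), without zfCTT replicate 2 in Tmem173 (−0.11) and Tbk1 (−0.0115), and without mSTING replicate 2 in the MAP kinase list (0.0456). At the other end, the values without 1 library reached 0.642 for Tmem173, 0.332 for Tnfaip3, −0.199 for Gapdh, 0.222 for Tbk1, 0.292 for the feedback regulators and −0.282 for the MAP kinase list. Of the 30 lists with at least 3 tested members, 10 changed the sign of their median without 1 mSTING or zfCTT library. Beside the 2 named these were the myeloid transcription factors (−0.50 to 0.08), surface receptors (−0.40 to 0.14), unfolded protein response (−0.12 to 0.13), NRF2 genes (−0.11 to 0.11), lysosome (−0.04 to 0.32), ribosomal proteins (−0.01 to 0.08), histones (−0.03 to 0.14) and macrophage markers (−0.12 to 0.13). Without a filter on low values the medians were 0.16 for cytokines, 0.51 for TNF ligands, 0.53 for MHC class II, 0.34 for the itaconate, arginine and tryptophan enzymes and 0.11 for p53 targets. Where fewer genes or libraries were tested, that is part of the change; otherwise the cause was not tested. With 2 libraries a group and 20.1 M reads in the shallowest, differences near the spread of mSTING were not detectable.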

Other observations

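Lists outside the immune pathways were read in the same way, as counts of genes whose 2 zfCTT libraries lie above or below both mSTING libraries (25.2% and 24.7% of all genes), and they hold values not given so far. Of 18 genes of cholesterol and fatty acid synthesis 12 lay above and 0 below, with a median difference of 0.39 and 0 calls. Scd1, the stearoyl-CoA desaturase, read 1.68 and 3.29 RPKM with mSTING, 1.82 to 2.94 in cells without a tailed STING and 6.52 and 6.90 with zfCTT (1.18 ± 0.27, limma, adjusted p = 0.250). Fdps, which makes farnesyl diphosphate, read 10.4 and 16.1 against 40.8 and 23.2 RPKM (1.19 ± 0.34, adjusted p = 0.347). Of 16 glycolysis genes 8 lay above and 1 below (median 0.19, or 0.09 without mSTING replicate 2 and 0.29 without mSTING replicate 1), and Pgk1 read 35.7 and 117 RPKM with mSTING and 238 and 126 with zfCTT (1.40 ± 0.65, adjusted p = 0.446), where mSTING replicate 1 was the lowest of the 8 libraries. Of 3 tested enzymes of itaconate, arginine and tryptophan metabolism 2 lay above and 0 below (median 1.74), 1 of them the called Acod1. The other was Ass1, which makes argininosuccinate, at 19.8 and 9.62 against 62.7 and 37.8 RPKM (1.74 ± 0.43, adjusted p = 0.292).

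Of 7 p53 target genes 2 lay above and 0 below (median 0.53, but 0.02 without zfCTT replicate 1 and 0.23 without mSTING replicate 2), among them Mdm2, the ligase that degrades p53, with 5.32 and 5.54 RPKM with mSTING and 18.4 and 12.5 with zfCTT (1.33 ± 0.21, limma, adjusted p = 0.113). Of 13 death and survival genes 7 lay above and 3 below (median 0.48, but 0.19 without zfCTT replicate 1 and 0.28 without mSTING replicate 2), and Mlkl, the executor of necroptosis, read 7.02 and 5.54 against 11.2 and 11.1 RPKM (0.75 ± 0.17, adjusted p = 0.256). Of 24 cell cycle genes 7 lay above and 4 below (median 0.16, or 0.09 without zfCTT replicate 1 and 0.29 without mSTING replicate 2), and cyclin D1, Ccnd1, read 66.1 and 68.6 against 32.4 and 48.1 RPKM (−0.76 ± 0.23, adjusted p = 0.364). Medians near that of all genes were found for 17 lysosome and autophagy genes (0.14, with 5 above and 2 below), 14 genes of the unfolded protein response (−0.05, with 3 and 1), 9 NRF2 and antioxidant genes (0.02, with 1 and 1), 32 cytosolic ribosomal proteins (0.05, with 7 and 9), 20 replication-dependent histones (0.05, with 4 and 5) and the 10 tested macrophage markers (0.00, with 2 and 0). None of these lists but that of Acod1 held a call by limma, with voom or without, and the number at an unadjusted p under 0.05 ran from 0 (histones, unfolded protein response, NRF2) to 6 (cholesterol, death and survival).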
